A study of Homo sapiens with 2 samples.

Results

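Genes that move, make and break down retinoic acid, with several of its best known targets, were examined for antibody signal in NB4 cells. They were 10 in number: STRA6, DHRS9, ALDH1A3, DHRS3, CYP26A1, CYP26B1, TGM2, RARRES3, NRIP1 and HIC1. Every listed peak that overlapped a gene body, or the 20 kb on either side of it, was taken for that gene. Gene positions were given on hg19 to the nearest kb, with a single start site for each gene. This gave 19 of the 20085 peaks of the list, in windows that together spanned 728 kb.

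NB4 cells are a line from acute promyelocytic leukemia. They express PML-RARA, a fusion of PML with RARA, the alpha form of the retinoic acid receptor. The series holds 1 group, NB4 cells in RPMI 1640 with fetal bovine serum and no stated treatment, with 2 replicates of CUT&Tag against PML-RARA. In CUT&Tag a transposase held at the antibody cuts and tags the DNA beside it, and the tagged fragments are sequenced. The authors gave 1 list of peaks merged from both replicates, so no value has a spread between replicates and no sample was tested against another. The depth is unknown, and no control antibody was analysed here. Whether the antibody also bound unfused PML or RARA was not tested.

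Retinol enters cells, is oxidised first to retinaldehyde and then to retinoic acid, and is removed by hydroxylases of the CYP26 family. Retinoic acid binds receptors that sit as heterodimers of RAR and RXR on retinoic acid response elements, which are paired copies of a short hexamer. In acute promyelocytic leukemia the PML-RARA fusion binds such elements too and holds target genes repressed until pharmacological retinoic acid is given. CYP26A1 is a textbook example of a gene switched on by retinoic acid through elements in its promoter.

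Promoter sequences are shown for CYP26A1, which carried the one direct repeat found, and for DHRS3, which carried a peak over its start. RefSeq promoter windows on GRCh38.p14, from 250 bases before a start site to 50 after it, were found for 7 of the 10 genes, 19 windows in all. They were searched on both strands for the hexamers AGGTCA or AGTTCA or GGGTCA or GGTTCA. Direct repeats of any pair of these with a spacer of 1, 2 or 5 bases are named DR1, DR2 and DR5. Capitals mark the direct repeat with its spacer in the CYP26A1 window, and a single hexamer in the first DHRS3 window. The DHRS3 window at chr1:12618161-12618460 held no hexamer. The most downstream DHRS3 window, at chr1:12596564-12596863, is not shown and also held a single hexamer. The start of the shown window with a hexamer lies 48.9 kb from the 3′ end, and that of the other 50.3 kb. By these distances the window without a hexamer would fall at about the peak over the start. The hexamer shown may lie outside that peak, but builds were not converted and this was not tested.
CYP26A1 promoter, chr10:93073643-93073942, plus strand: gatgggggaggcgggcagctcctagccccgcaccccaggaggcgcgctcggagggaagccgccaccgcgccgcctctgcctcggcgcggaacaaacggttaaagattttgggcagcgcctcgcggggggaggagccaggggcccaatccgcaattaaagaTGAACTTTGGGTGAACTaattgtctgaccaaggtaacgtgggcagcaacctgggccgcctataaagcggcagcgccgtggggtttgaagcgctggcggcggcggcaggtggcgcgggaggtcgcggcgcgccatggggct
DHRS3 promoter, chr1:12616740-12617039, minus strand: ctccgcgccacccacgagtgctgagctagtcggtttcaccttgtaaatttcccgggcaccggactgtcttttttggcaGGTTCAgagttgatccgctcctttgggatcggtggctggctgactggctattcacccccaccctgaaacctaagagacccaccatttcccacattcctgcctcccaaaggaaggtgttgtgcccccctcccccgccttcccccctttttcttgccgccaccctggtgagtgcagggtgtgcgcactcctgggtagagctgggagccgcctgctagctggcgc
DHRS3 promoter, chr1:12618161-12618460, minus strand: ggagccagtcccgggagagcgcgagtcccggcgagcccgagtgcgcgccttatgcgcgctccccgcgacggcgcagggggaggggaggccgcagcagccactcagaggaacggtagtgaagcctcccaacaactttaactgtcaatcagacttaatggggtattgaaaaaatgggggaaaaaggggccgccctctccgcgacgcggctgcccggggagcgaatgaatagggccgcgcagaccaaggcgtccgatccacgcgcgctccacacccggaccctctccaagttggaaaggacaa

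The repeat of CYP26A1 is a DR5 that reads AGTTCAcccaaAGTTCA on the opposite strand, with the hexamers in capitals, and ends 74 bases before the start site. A DR5 was present in 31 of 35116 promoter windows of the reference (0.0883%), and any of DR1, DR2 and DR5 in 91 (0.259%). Among the 19 member windows this CYP26A1 window was the only one with any of these repeats. A single hexamer was common: 7 of the 19 member windows and 38.6% of all windows held at least 1. It was found in windows of 5 of the 7 matched genes, CYP26A1, DHRS3, DHRS9, NRIP1 and STRA6. The windows of CYP26B1 and ALDH1A3 held none. These are matches of letters in a short window, and elements farther away were not searched.

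Peaks were listed at 7 of the 10 genes, and the 3 without one were CYP26A1, CYP26B1 and NRIP1. Their share was 70.0% (95% exact binomial interval 34.8 to 93.3%), against 65.1% of 327 protein-coding genes with hg19 models in installed software (213 genes, taken with the same 20 kb margin). Of 50 kb tiles of the chromosomes, 15.7% held a peak. The share of retinoid genes with a peak was thus close to that of the other coding genes. DHRS3 had the most peaks, 5, followed by DHRS9 with 4, TGM2 and HIC1 with 3 each, RARRES3 with 2, and STRA6 and ALDH1A3 with 1 each. At least 3 peaks were listed at 4 of the 10 retinoid genes and at 25.4% of the sampled genes (83 of 327). Pooled over windows, the density was 2.61 peaks per 100 kb at the retinoid genes, 1.72 at the sampled genes and 0.661 over chromosomes 1 to 22 and X. Pooling gives long windows more weight, and some sampled windows were far longer than any of the retinoid genes. Median windows were alike, 70.5 kb for the retinoid genes and 72 kb for the sampled genes. The median number of peaks per gene was 1.5 for the retinoid genes and 1 for the sampled genes, whose interquartile range was 0 to 3. Genes are not replicates, and the sampled genes are software examples and no random draw.

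**Figure D1:**
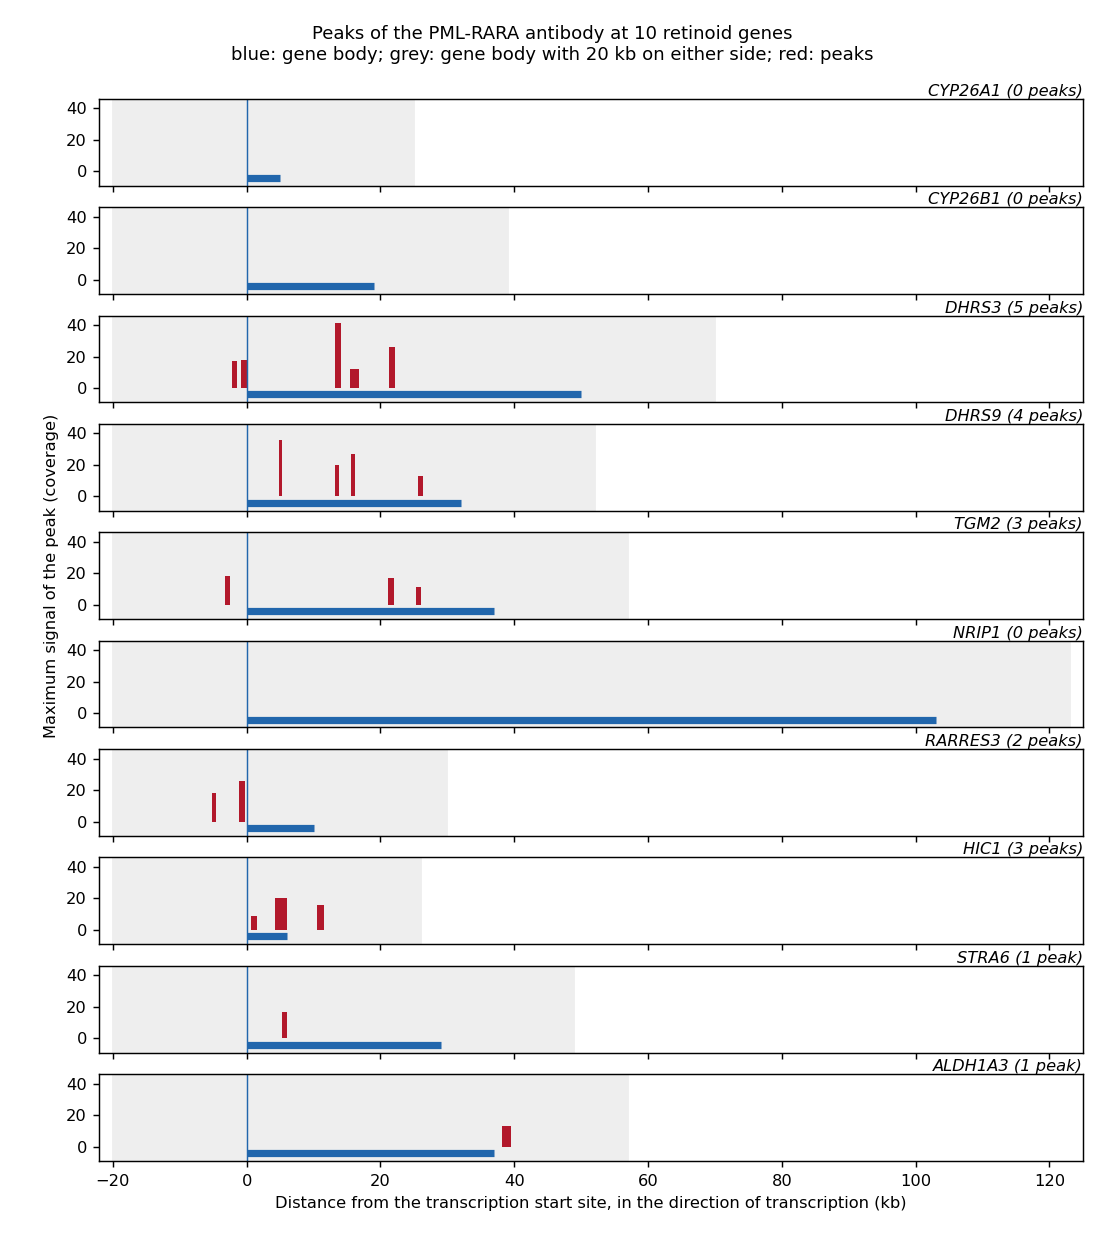
Each row is 1 gene, drawn in the direction of transcription, with distance from the start site in kb on the horizontal axis and the maximum signal of each peak (coverage) on the vertical axis. The rows of CYP26A1, CYP26B1 and NRIP1 are empty, and no peak exceeds 41. The 5 peaks of DHRS3 fall into a pair at the start used here and 3 farther inside the gene.

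The peaks at these genes were weak ones. The 2 signal columns of the list, headed width and peak, were read from their values, as no source used here explains them. The first was taken as the total signal of a peak, its coverage added up base by base. The second was taken as its maximum, the highest coverage in it. The 19 totals ran from 2635 to 10953 with a median of 5403, against a median of 6479 over the whole list. Their quartiles were 3438.5 and 6837, and those of the whole list 3755 and 13912. Of the 19, 13 lay below the median of the list and 6 lay below its lower quartile. None reached the upper quartile of the list, whereas 27.5% of the sampled genes (90 of 327) had at least 1 such peak in their windows and 0 of the 10 retinoid genes did. The strongest peak of a gene had a median total of 7141 over the 7 retinoid genes with a peak and of 11411 over the 213 sampled genes with a peak. The highest of the 19, at HIC1, was exceeded by the strongest peak of 109 of those 213 genes (51.2%).

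By height and length the picture was alike. The maximum signal of the 19 peaks had a median of 18 and ranged from 9 to 41, against a median of 22 over the list, and 5 of the 19 reached that median. Median length was 774 bp at the retinoid genes and 893 bp over the list. Signal per base had a median of 6.07 in the 19 peaks and 7.53 over the list. Together the 19 peaks covered 16585 bp and held a summed total of 106894, or 6.45 per base, against 11.7 per base over all peaks. They were 0.0946% of the peaks and held 0.0384% of the signal.

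**Figure D2:**
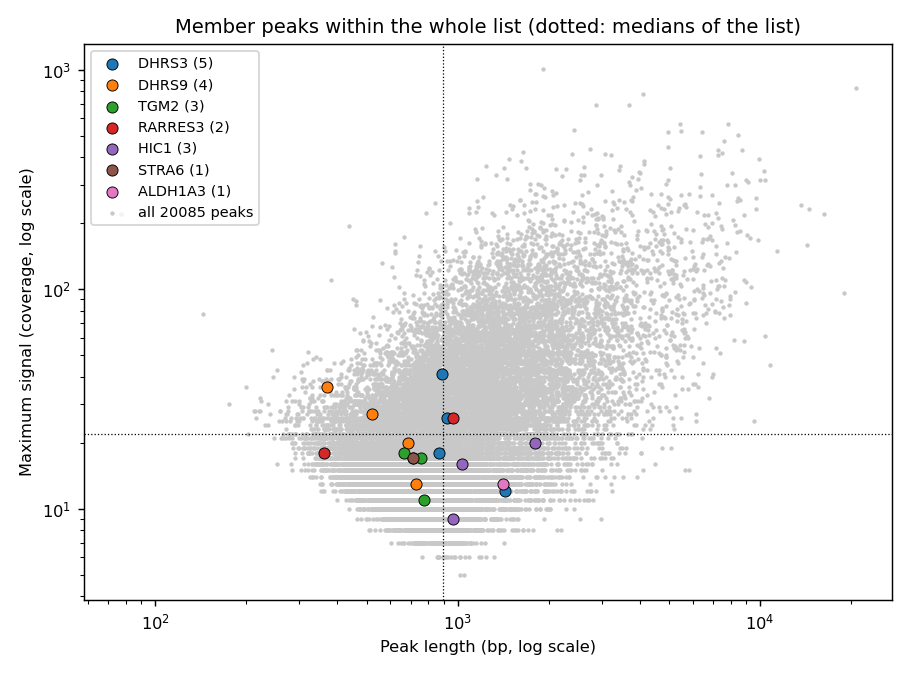
Each point is a peak, by its length in bp and its maximum signal, both on log scales. Coloured points are the 19 peaks of the 7 retinoid genes with any, and grey points are all 20085 peaks. The dotted lines mark the list's medians of 893 bp and 22, and the coloured points reach no higher than 41 (1 point of DHRS3 lies under that of STRA6).

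Of the uptake and synthesis genes, DHRS9 carried 4 peaks, and STRA6 and ALDH1A3 carried 1 each, which was also the median of the sampled genes. STRA6 encodes the membrane receptor that takes up retinol from its plasma carrier protein. Its 1 peak (chromosome 15, 74494985 to 74495699) lay inside the gene, 5.30 kb downstream of the start used here. The total was 4443 and the maximum 17, which ranked 13337 of 20085 by total. RefSeq also gives starts 23.3 and 23.6 kb from the 3′ end of STRA6, which by that distance would fall at about this peak. Builds were not converted, so this was not tested. STRA6 and the fusion partner PML lie near each other, with 3 protein-coding genes between them in the GRCh38 order. The STRA6 band, 15q24.1, held 52 peaks, or 20.8 per Mb, against 6.61 per Mb over the chromosomes. Such a density was not particular to STRA6. The bands of RARRES3, DHRS3 and HIC1 held 31.8, 24.9 and 18.2 per Mb, and the lowest, that of NRIP1, held 0.476.

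DHRS9 encodes a short-chain dehydrogenase that oxidises retinol to retinaldehyde, and all 4 of its peaks lay inside the gene. The first, at chromosome 2, 169925888 to 169926257, began 4.89 kb downstream of the start used here. It was short and tall, 369 bp with a maximum of 36 and a total of 5424. The others, at 169934162 to 169934849, 169936618 to 169937138 and 169946562 to 169947290, had totals of 5185, 6027 and 2875 and maxima of 20, 27 and 13. The first peak had the highest signal per base of the 19, at 14.7. RefSeq gives DHRS9 starts 29.1, 26.6, 23.6 and 15.1 kb from its 3′ end. By these distances the second would fall close to the first peak and the last close to the third. Builds were not converted, so this was not tested. Upstream of DHRS9 the list was bare: the next peak on that side lay 594 kb from the start, so that the gene's 4 peaks stood alone, and a margin of 200 kb added none. Its 4 RefSeq windows were also the poorest in G and C of the members, at 31.3 to 39.3%, against a median of 58.7% over all windows.

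ALDH1A3 encodes a retinaldehyde dehydrogenase, which carries out the last step of retinoic acid synthesis. Its 1 peak lay past the 3′ end, at chromosome 15, 101458178 to 101459590, 1.18 kb beyond the gene and 38.2 kb from the start. The peak was 1412 bp long and low, with a total of 7141 and a maximum of 13. In the GRCh38 order LRRK1 is the next coding gene on that side, and the list does not tell which gene the peak belongs to. Its single promoter window was the richest in G and C of the members, at 81.7% with 46 CpG dinucleotides, and no peak was listed over its start. On the upstream side the nearest peak ended 45.4 kb from the start.

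DHRS3 encodes a reductase that turns retinaldehyde back into retinol and is itself induced by retinoic acid in many cells. A pair of peaks stood at its start. The first, at chromosome 1, 12677952 to 12678819, spanned the start as given to the nearest kb, with a total of 4618 and a maximum of 18, and the second, at 12679509 to 12680221, lay 1.51 kb upstream with a total of 3395 and a maximum of 17. RefSeq gives 3 starts for this gene, with 31, 13 and 5 CpG dinucleotides in their windows from the most upstream to the most downstream. The other 3 peaks lay between 13.2 and 21.2 kb downstream of the start used here. They had higher totals than the pair at the start, though the lowest of them by maximum was below both. Of these, the peak at 12663936 to 12664827 had a total of 10432 and a maximum of 41, the highest maximum of the 19 and the one value of them above the list's upper quartile of 38. Those at 12655859 to 12656785 and 12661152 to 12662592 had totals of 9033 and 6533 and maxima of 26 and 12. The most downstream RefSeq start lies 28.7 kb from the 3′ end. By that distance it would fall at about the peak at 12655859 to 12656785, but builds were not converted and this was not tested. With 34011, DHRS3 had the highest summed total of the 10 genes, over 4836 bp.

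The genes of retinoic acid clearance were without a listed peak. CYP26A1 encodes the main retinoic acid hydroxylase, and the nearest peak to its start lay 225 kb upstream, at chromosome 10, 94606763 to 94607606. It was weak, with a total of 3519 (rank 15844). On the other side the first peak began 340 kb away, which made an empty stretch of 565 kb around the gene and its DR5. CYP26C1, its paralog, is the next coding gene upstream in the GRCh38 order. Of the 20049 gaps between neighbouring peaks on a chromosome, 4.75% were at least as long, against a median gap of 14.8 kb. No peak lay closer to the start than at CYP26A1 for 49 of the 327 sampled genes, so such a distance was not rare.

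CYP26B1 encodes the second hydroxylase of this family. Its nearest peak lay 196 kb from its start, downstream of the gene, at chromosome 2, 72177758 to 72178703, with a total of 4990. The gene stood in an empty stretch of 1002 kb, from 72178703 to 73181046, and 3.03% of gaps were at least as long. Such gaps made up 59% of the total length of gaps, and 16.8% of the sampled genes lay at least as far from a peak, so this distance was not rare either. Its band, 2p13.2, nonetheless held 22 peaks, or 11.0 per Mb. At the edge of a 200 kb margin downstream, 197 kb past the gene, stood a peak with a total of 81788 and a maximum of 76 (chromosome 2, 72150902 to 72158864, rank 378), stronger than any peak within 20 kb of the 10 genes.

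**Figure D3:**
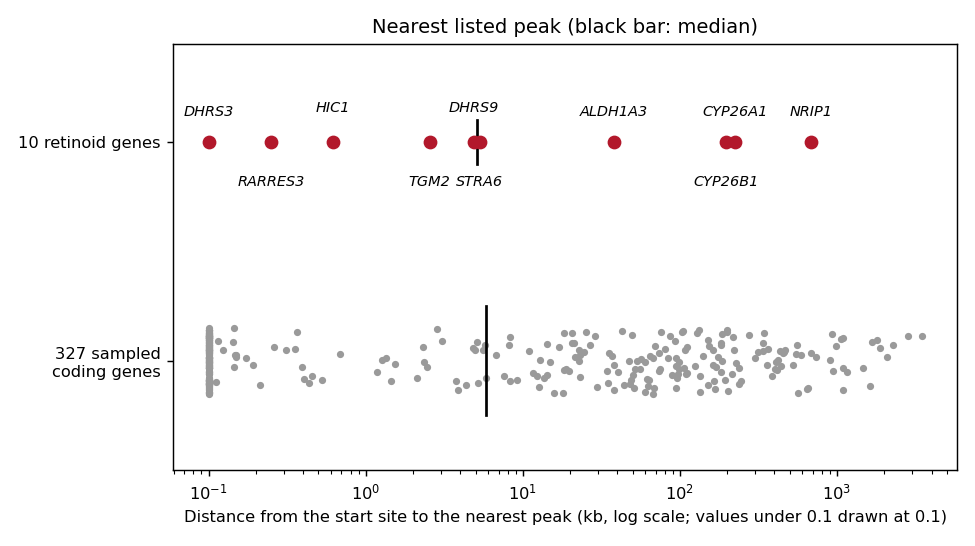
Distance from the start site to the nearest listed peak, in kb on a log scale, for the 10 retinoid genes (red, upper row) and the 327 sampled coding genes (grey, lower row, spread vertically for view). The medians are 5.09 and 5.79 kb, and CYP26A1, CYP26B1 and NRIP1 lie at 225, 196 and 681 kb.

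Among the targets, TGM2 and RARRES3 had peaks at or shortly before their starts. TGM2 encodes transglutaminase 2, a protein cross-linking enzyme known to be induced by retinoic acid in NB4 cells. A peak at chromosome 20, 36796552 to 36797219, lay 2.55 kb upstream of its start with a total of 3482 and a maximum of 18. Inside the gene, 21.2 and 25.2 kb from the start, peaks at 36772045 to 36772800 and 36767976 to 36768750 had totals of 5965 and 2879 and maxima of 17 and 11. RARRES3, now called PLAAT4, encodes a phospholipase and acyltransferase found as a gene induced by retinoids. Its stronger peak, at chromosome 11, 63302787 to 63303749, ended 0.251 kb before the start with a total of 7330 and a maximum of 26. The other, at 63298944 to 63299305, was the weakest of the 19 by total, at 2635 with a maximum of 18 (rank 19891). No peak was listed inside RARRES3.

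HIC1 encodes a zinc finger transcriptional repressor, and its compact locus had the highest density of the 10, 6.52 peaks per 100 kb. DHRS3 and DHRS9 followed with 5.56 each, and the value of HIC1 rests on 3 peaks in a window of 46 kb. A low peak at chromosome 17, 1957615 to 1958577, lay 0.615 kb inside the start, with a total of 3141 and a maximum of 9, the lowest maximum of the 19. The peak at 1961264 to 1963069 spanned the 3′ end of the gene and was the longest of the 19, at 1805 bp, and the strongest by total, at 10953 with a maximum of 20 (rank 6385). The last, at 1967556 to 1968589, lay past the gene with a total of 5403 and a maximum of 16. The coding genes DPH1, OVCA2 and SMG6 and the microRNA genes MIR132 and MIR212 lie within the same margin of HIC1 in the GRCh38 table, so these peaks may belong to neighbours.

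NRIP1 encodes a corepressor that nuclear receptors recruit when they hold their ligand, and it lay in the emptiest region of the 10. No peak was listed within 500 kb of the gene. The nearest, at chromosome 21, 15755390 to 15755866, lay 681 kb from the start with a total of 3153, and the next peak on the other side began at 25341067. This empty stretch of 9585 kb was among the 11 longest of the 20049 gaps, some of which cross centromeres. Of the sampled genes, 6.12% had no peak closer to their start. The band of NRIP1, 21q11.2, held 1 peak over 2.1 Mb. Its RefSeq windows were rich in CpG dinucleotides, with 48, 32 and 14.

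The comparison at start sites depended on the window. A peak within 2 kb of the start was listed at 3 of the 10, DHRS3, RARRES3 and HIC1, or 30.0% (95% exact binomial interval 6.67 to 65.2%), against 45.3% of the sampled genes (148 of 327). Member starts are known to the nearest kb, and the sampled genes were rounded likewise. Each gene of both sets was counted at a single start. RefSeq gives further starts for CYP26A1, DHRS3, DHRS9, NRIP1 and STRA6, and some at DHRS9 and STRA6 may fall at a peak. No promoter window was found for TGM2, RARRES3 and HIC1, so whether they have further starts is unknown here. Further starts were counted for neither set, so the shares hold only for the starts used. With a window of 5 kb DHRS9 and TGM2 joined them, which made 5 of the 10 retinoid genes, against 48.6% of the sampled genes (159 of 327). With 10 kb STRA6 joined too, making 6 of the 10, against 52.0% of the sampled genes (170 of 327). A peak overlapped the gene body itself at 5 of the 10 retinoid genes and at 49.5% of the sampled genes. Of the 19 peaks, 13 overlapped a gene body, 4 lay upstream and 2 downstream.

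The peaks of these genes stood close together. A neighbour within 10 kb was listed for 16 of the 19 (84.2%), against 61.4% of the 20072 peaks on chromosomes 1 to 22 and X. The latter share includes peaks outside gene windows. No share was computed for peaks at the sampled genes, so whether closeness is particular to the retinoid genes was not tested. The 3 exceptions among the 19 were the lone peaks of STRA6 and ALDH1A3 and the upstream peak of TGM2. Peaks that share a gene are not independent, and 15 of the 19 came from DHRS3, DHRS9, TGM2 and HIC1.

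Beyond the 20 kb margin the genes differed further. Within 200 kb of the gene body the list held 15 peaks for TGM2, 13 for STRA6, 11 for HIC1, 9 for RARRES3, 6 for DHRS3, 5 each for CYP26B1 and ALDH1A3, 4 for DHRS9, and 0 for CYP26A1 and NRIP1. DHRS9 gained no peak and DHRS3 gained 1, so that their peaks lay almost wholly at the gene. TGM2, STRA6, HIC1, RARRES3, ALDH1A3 and CYP26B1 had most of their peaks within 200 kb outside the 20 kb margin. The wider margin adds far more sequence than the first window held. No such count was made for the sampled genes, so whether either pattern is particular to these genes was not tested. By chromosome, TGM2 held 3 of the 852 peaks of chromosome 20, HIC1 3 of the 1337 of chromosome 17, and STRA6 and ALDH1A3 together 2 of the 713 of chromosome 15.

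**Figure D4:**
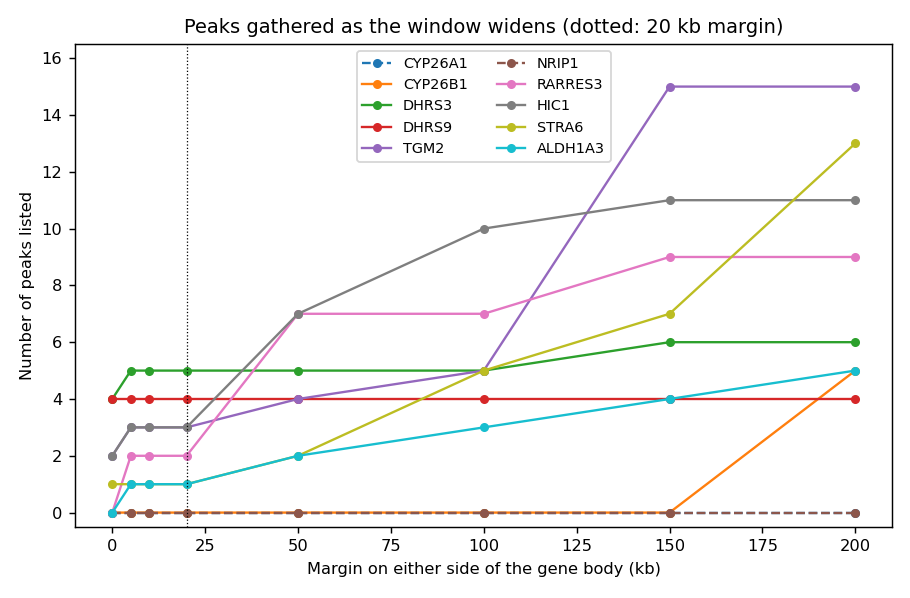
Number of listed peaks that overlap the gene body and a margin on either side of it, for margins from 0 to 200 kb, with 1 line per gene and the 20 kb margin dotted. TGM2 ends highest at 15, DHRS9 stays at 4 throughout, and CYP26A1 and NRIP1 (dashed) stay at 0.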

How the data were processed

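CUT&Tag of NB4 cells against PML-RARA had 2 replicates of 1 group, sequenced in paired ends, per the labels' protocols. Trimmomatic, Bowtie2, bedtools, SAMtools and SEACR, with the build hg19, are named in the submitters' processing notes; no source used here states their versions, the threshold, a control track or how replicates were merged. The deposited list holds positions and 2 columns of signal per peak. The first signal column, headed width, was read as total signal, and the second, headed peak, as maximum signal (coverage). No source used here states this, and the reading rests on the values. The first column exceeded the peak length in all 20085 rows and never exceeded length times the second. No scaling to depth is stated. Positions are printed as listed, and starts may count from 0.

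Overlap by any base with the gene body plus 20 kb assigned a peak to a gene, and a start site peak overlapped the 2 kb on either side. The members and lists were chosen with earlier results of these data known. All 10 genes are named by rule. Of 18 other pathway genes listed, none had an hg19 position in the models used, so they were not analysed here. Models of 327 protein-coding genes came from pyranges 0.1.4 (289) and GenomicFeatures 1.54.1 (38), among them ALDH1A3, and 58 lie on chromosome 1; another 2 models longer than 3 Mb were left out as faulty after the data had been seen. Chromosome lengths came from GenomeInfoDb 1.38.1 and bands from circlize 0.4.16. GRCh38 tables of RefSeq gave names, neighbours and promoter sequences, with no conversion between builds. Intervals are exact binomial (scipy 1.17.1) and cover counting error only. Overlap, distance and merging were tested on simulated intervals. Margins, thresholds, overlap rules, merging, and the signal measure were varied. No test between samples was possible.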

Additional observations from a re-analysis of the deposited data

How the results depend on the processing

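Narrower margins of 5 and 10 kb gave the same 19 peaks at 7 genes, and the gene body alone 13 peaks at 5 genes. Wider margins left 7 genes with a peak: 50 kb gave 31 peaks with a summed total of 235647, and 100 kb gave 39 with 268486. With only peaks whose maximum reached the list's median, 5 peaks at 3 genes were left, with a summed total of 38246 and 1 gene with a start site peak, and the ratio of the members' median total to that of the list, 0.834 with all peaks, was 0.547. With only peaks at or above the list's upper quartile of total signal, 0 peaks were left, so the number of genes, the number with a start site peak and the summed total were 0 and no median could be given. Counts and sums fall because fewer peaks are kept. For the ratio, both medians were higher under the first threshold, 7330 for the members and 13408 for the list, and the cause of the change was not tested. A start site window of 5 kb gave 5 genes and one of 10 kb gave 6. Assigning peaks by midpoint, merging peaks within 1 kb, and a 1 kb start site window moved no count or median by over 1.5 times. With each gene left out in turn the count ran from 14 to 19, the summed total from 72883 to 106894 and the ratio of medians from 0.817 to 0.836. Taken on the maximum the ratio was 0.818, and per base 0.806.

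No paired analysis was possible because both replicates belong to 1 group and share 1 merged list, so leaving out a replicate could not be done either. A weak site under the authors' threshold cannot be told apart from an unbound one, and sequencing depth, which sets that limit, is unknown. Start sites are known to the nearest kb, and other starts of a gene were not counted.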

Other observations

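Several of the strongest peaks near these genes lay outside the 20 kb margin. The strongest within 200 kb of TGM2, at chromosome 20, 36926920 to 36928781, had a total of 52920 and a maximum of 128 and lay 133 kb upstream of the gene (rank 847). That of STRA6, at chromosome 15, 74691853 to 74697153, had a total of 75042 and lay 191 kb upstream (rank 447). RARRES3 had one of 22421 at 29.9 kb upstream (chromosome 11, 63272824 to 63274141, maximum 82, rank 2922). HIC1 had one of 18460 at 27.5 kb downstream (chromosome 17, 1990523 to 1992264, maximum 45, rank 3705). Each had a higher total than any of the 19 peaks within 20 kb. For DHRS3, DHRS9 and ALDH1A3 the strongest peak within 200 kb was the one already described at the gene. These peaks were looked up after the values at the genes were known, and which genes they belong to was not tested. The strongest peak of a wider window can only be equal or stronger, and no such value was computed for the sampled genes.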
